A study of Mus musculus with 15 samples.

Results

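Gene starts that carried both H3K27Me3 and H3K4Me1 in pre-B cells were followed through the conversion of these cells into macrophage-like cells. They were chosen by their levels before induction: of 22350 protein-coding gene starts on chromosomes 1 to 19 and X of the mouse build mm9, those with at least 2 times the library mean of H3K27Me3 in the 5 kb centred on the start and of H3K4Me1 in the centred 3 kb were kept. This left 1112 starts (4.98%). Of the other starts, 1953 passed for H3K27Me3 only, 8955 for H3K4Me1 only and 10330 for neither. A level is the number of distinct tag positions in the window over the mean of that library for a window of the same size, so that 1 is the mean of the library and levels can be compared between windows of different length. H3K27Ac, measured in 3 kb, had no part in the choice, and neither had any library after 0 h.

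The cells were C10 cells, a single line derived from HAFTL mouse pre-B cells that carries a GFP-tagged C/EBPα fused to the hormone-binding domain of the estrogen receptor. Induced cells received 100 nM β-estradiol together with IL-3 and CSF-1 at 10 nM, and control cells received the ethanol solvent. The 3 marks were mapped by ChIP-seq, which sequences DNA pulled down with an antibody to the mark, at 0, 3, 12, 24 and 48 h post-induction (hpi), with 1 library for each mark and time. With no replicates, the spread between libraries of a group is unknown, and no test was made. Intervals given here are at 95% and cover counting error only, and gene starts of the same libraries are not replicates of a condition.

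The deposited libraries held between 10913733 and 31541879 distinct tag positions on these chromosomes, which put 31.3 to 64.4 tags in a mean 5 kb window for H3K27Me3, 13.4 to 21.5 tags in a mean 3 kb window for H3K4Me1 and 18.6 to 21.5 for H3K27Ac. The labelled cell type was checked on H3K27Ac at marker gene starts. All 7 B cell markers had a level of at least 2 at 0 hpi and were at least 2-fold lower at 48 hpi, where all 7 were still at 2 or more. All 7 macrophage markers were at least 2-fold higher at 48 hpi, and 2 of them, Cd14 and Csf1r, were among the starts with both marks.

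As background, H3K27Me3 is laid down by the Polycomb repressive complex PRC2 and marks repressed genes, whereas H3K4Me1 marks enhancers and the flanks of promoters. A promoter that holds a repressive and an activating mark together is often called poised. H3K27Ac marks active promoters and enhancers and sits on the same lysine as H3K27Me3, so a single histone tail cannot hold both. C/EBPα is a leucine zipper transcription factor of the myeloid lineage that turns B lineage cells into macrophages together with PU.1, an Ets factor.

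The base composition around these starts was mixed, and 7 members picked by the extremes named below are shown as examples. They do not span its range. Each sequence runs from 250 bases before to 50 bases after the start, 5′ to 3′ in the direction of transcription, in build mm9, with every CG pair in capitals. Sfi1 (chr11:3093417-3093716, minus strand) had the highest joint level of both marks, and Sema4a (chr3:88265055-88265354, minus strand) had the largest fall of H3K27Me3. Krt7 (chr15:101241224-101241523, plus strand) had the largest rise of H3K27Me3, Ifitm6 (chr7:148202742-148203041, minus strand) the largest rise of H3K27Ac and Eya2 (chr2:165480548-165480847, plus strand) the largest fall of H3K27Ac. Rnf11 (chr4:109157284-109157583, minus strand) had the largest rise of H3K4Me1, and 4931408C20Rik (chr1:26744256-26744555, minus strand) had the fewest CG pairs in its central 1 kb.
Sfi1: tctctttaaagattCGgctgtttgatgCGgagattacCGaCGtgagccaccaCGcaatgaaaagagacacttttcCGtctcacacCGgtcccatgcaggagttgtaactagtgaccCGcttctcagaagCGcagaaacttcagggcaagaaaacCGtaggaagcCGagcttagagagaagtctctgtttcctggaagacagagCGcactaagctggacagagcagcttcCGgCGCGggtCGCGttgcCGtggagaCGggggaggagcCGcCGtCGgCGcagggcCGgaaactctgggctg
Sema4a: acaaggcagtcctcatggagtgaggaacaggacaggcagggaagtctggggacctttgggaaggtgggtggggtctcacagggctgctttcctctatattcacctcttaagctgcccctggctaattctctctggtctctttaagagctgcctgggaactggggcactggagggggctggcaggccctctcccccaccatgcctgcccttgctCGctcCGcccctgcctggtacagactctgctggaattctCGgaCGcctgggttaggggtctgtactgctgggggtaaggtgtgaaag
Krt7: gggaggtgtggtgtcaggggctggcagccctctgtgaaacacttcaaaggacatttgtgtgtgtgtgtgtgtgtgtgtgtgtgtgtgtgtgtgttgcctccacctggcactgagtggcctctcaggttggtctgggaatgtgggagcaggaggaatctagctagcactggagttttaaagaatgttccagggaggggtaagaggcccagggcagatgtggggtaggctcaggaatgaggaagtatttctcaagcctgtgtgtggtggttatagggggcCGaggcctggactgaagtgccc
Ifitm6: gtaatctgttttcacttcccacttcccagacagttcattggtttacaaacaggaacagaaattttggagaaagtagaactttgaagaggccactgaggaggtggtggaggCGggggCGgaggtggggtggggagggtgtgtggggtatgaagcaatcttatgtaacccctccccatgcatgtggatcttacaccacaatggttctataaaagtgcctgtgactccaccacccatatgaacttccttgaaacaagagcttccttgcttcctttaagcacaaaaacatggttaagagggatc
Eya2: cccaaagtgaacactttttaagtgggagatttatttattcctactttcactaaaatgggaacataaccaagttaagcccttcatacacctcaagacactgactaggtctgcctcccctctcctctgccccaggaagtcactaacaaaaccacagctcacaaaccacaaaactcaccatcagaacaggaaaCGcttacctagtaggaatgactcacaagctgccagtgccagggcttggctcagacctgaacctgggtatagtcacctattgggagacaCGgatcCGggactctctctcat
Rnf11: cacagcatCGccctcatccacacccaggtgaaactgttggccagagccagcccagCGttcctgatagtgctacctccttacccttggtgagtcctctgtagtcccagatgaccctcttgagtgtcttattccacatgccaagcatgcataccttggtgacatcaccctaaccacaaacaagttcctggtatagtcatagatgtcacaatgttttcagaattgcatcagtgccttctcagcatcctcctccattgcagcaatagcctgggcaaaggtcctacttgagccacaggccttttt
4931408C20Rik: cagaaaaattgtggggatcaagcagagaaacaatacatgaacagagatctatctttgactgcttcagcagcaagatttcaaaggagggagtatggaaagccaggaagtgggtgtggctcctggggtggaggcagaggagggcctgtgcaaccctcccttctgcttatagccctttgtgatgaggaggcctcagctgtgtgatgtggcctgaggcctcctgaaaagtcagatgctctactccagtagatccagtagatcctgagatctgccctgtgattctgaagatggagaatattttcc

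Sfi1 held 24 CG pairs in its 300 bases and was the CpG-rich sequence of the set. Sema4a held 4, Eya2 3, Ifitm6 and Rnf11 2 each, Krt7 1 and 4931408C20Rik 0. A start was called CpG-rich when the 1 kb around it had a GC content of at least 50% and an observed over expected CpG ratio of at least 0.6. Of the 1112 members, 598 were CpG-rich (53.8%, exact binomial interval 50.8 to 56.7), against 18.9% of the starts with H3K27Me3 only, 69.9% of those with H3K4Me1 only and 44.2% of all starts. Of the 517 members with both marks at 2 or more in the central 1 kb, a subset chosen after seeing the data, 37.3% were CpG-rich, which is below the share of all starts. Seen from the other side, 61.8% of the 968 CpG-rich starts with H3K27Me3 also passed for H3K4Me1, against 24.5% of the 2097 other starts with H3K27Me3. The C/EBP motif TTGCNNAA, searched on both strands of the 300 bases, was found at 8.36% of the members and 10.3% of all starts, and the PU.1 motif GAGGAAGT at 2.61% and 3.12%. A match to either is a description of the letters and not of binding.

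Members were spread over all chromosomes used, with the largest share on chromosome 11 (133 of 1653 starts, 8.05%) and 2 of 932 on chromosome X (0.215%). On X, 4 starts in all (0.429%) passed for H3K27Me3, against 14.3% on chromosomes 1 to 19, and the median levels at 0 hpi were lower there for all 3 marks, at 0.341 against 0.823 for H3K27Me3, 0.287 against 1.61 for H3K4Me1 and 0.161 against 0.965 for H3K27Ac. Members were not all separate loci: 145 had another member within 3 kb and shared tags with it, and 1038 loci remained when starts within 3 kb were merged. A group of 10 members, picked by name or position after their values were seen, was taken to lie in repeated sequence. No annotation of repeats was used for this. These were Sfi1, Gm17379, Gm10800, Gm10801 and 6 predicted genes in the part of chromosome 9 nearest its start, and their levels were at 1.63 or more in all 15 libraries. The start of Gm10800, a predicted gene, had 414, 409, 397, 385 and 375 H3K27Me3 tags at 0, 3, 12, 24 and 48 hpi, while the size of these libraries differed 2.06-fold, so its level went from 6.43 to 12.0 on a nearly constant number of tags. Sfi1 differed, with 291 to 704 H3K27Me3 tags and levels of 9.29 to 10.9. Without these 10, none of the 21 values recomputed moved past its tolerance, among them the median changes, the 2-fold counts at 48 hpi and the CpG-rich share.

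Around the start, the marks took different shapes. Mean H3K27Me3 was highest at 1500 to 1000 bp upstream, with a level of 3.33, and dipped at the start, to 2.17 in the 500 bp downstream. Mean H3K4Me1 was highest at 1000 to 500 bp upstream, with 4.91, and dipped less, to 3.56. Starts with H3K4Me1 only had a deep hollow in that mark, from 6.97 at 1000 to 1500 bp downstream to 1.85 in the 500 bp next to the start. Members with H3K27Ac under 2 at 0 hpi had more H3K4Me1 in the flanks than in the core at 45.3% of starts, against 57.6% of H3K4Me1-only starts with H3K27Ac under 2. Among members with H3K27Ac of 2 or more it was 72.5%, and among the H3K4Me1-only starts with that level 87.1%. H3K27Me3 extended a median of 16 kb around the members at 0 hpi and 18 kb at 48 hpi, against 17 and 22 kb around starts with H3K27Me3 only.

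**Figure D1:**
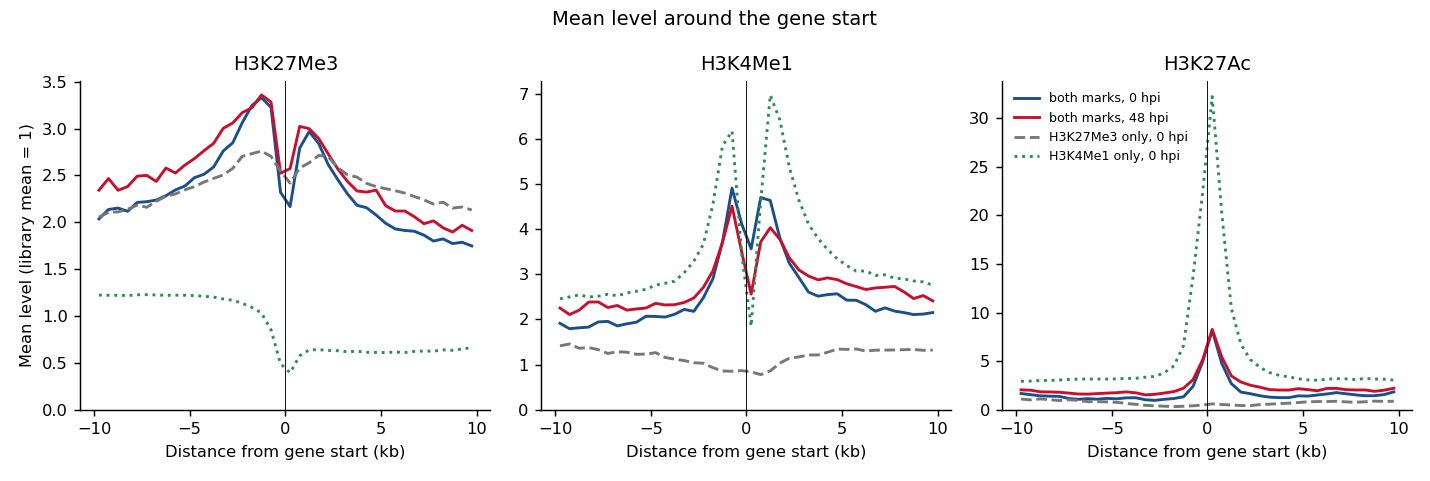
Mean level of each mark, with the library mean at 1, in bins of 500 bp up to 10 kb on either side of the gene start, upstream on the left. Starts with both marks are shown at 0 hpi (blue) and 48 hpi (red), and starts with H3K27Me3 only (grey, dashed) and H3K4Me1 only (green, dotted) at 0 hpi. H3K27Me3 of the members peaked at 3.33 before the start, and their H3K27Ac peaked at 8.18 against 32.2 at starts with H3K4Me1 only.

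The members were split at a level of 2 in H3K27Ac, which had not been used to choose them. This cut was set and lay near their median of 2.31 at 0 hpi (quartiles 0.804 and 5.47). At 0 hpi, 589 of them (53.0%) had an H3K27Ac level of at least 2, against 46.0% of all starts. The share was 94.4% of the starts with H3K4Me1 only and 1.95% of those with H3K27Me3 only. The 523 members under 2 had a median H3K27Ac of 0.751, and 78.2% of them kept H3K27Me3 of at least 2 in the central 1 kb. Of the 589 with H3K27Ac, whose median was 5.15, 32.9% did. CpG-rich starts made up 31.4% of the first group and 73.7% of the second. Both marks of the rule stood at 2 or more in the central 1 kb at 64.8% of the first and 30.2% of the second, 517 members in all. At the remaining members the windows met the rule while at least 1 mark was under 2 next to the start. A window of this size and a population of cells cannot show whether the marks shared a nucleosome or a cell.

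Over the time course, H3K27Me3 stayed at most members. Its median was 2.67 at 0 hpi (quartiles 2.28 and 3.26), 2.54 at 3, 3.12 at 12, 2.54 at 24 and 2.87 at 48 hpi, while the median over all starts went from 0.792 to 0.734. A level of 2 or more, which the rule fixed at 0 hpi, was held by 916 members at 3 hpi, 1052 at 12, 898 at 24 and 958 at 48 hpi (86.2%, 84.0 to 88.1). The same level was reached by 13.7%, 12.2%, 16.0%, 14.3% and 16.7% of all starts at the 5 times. At 12 hpi, 928 of 1112 members were above their 0 hpi level, against 1307 of 1953 starts with H3K27Me3 only and 11111 of all 22350 starts. Other ways to scale that library moved its levels by 0.11 and -0.15 on the log2 scale, against a median change of 0.19 at members. At 48 hpi the median change was 0.06, and 0.20 and -0.10 on these other scales, so it had no stable direction.

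H3K4Me1 first rose and then fell by this measure. Its median at members was 3.79 at 0 hpi, 4.15 at 3, 4.33 at 12, 3.40 at 24 and 2.92 at 48 hpi, and that over all starts was 1.49, 1.68, 1.59, 1.31 and 1.2, with its peak at 3 and not at 12 hpi. At 48 hpi, 819 members (73.7%) were still at 2 or more. The share of all starts at that level was 45.0%, 48.2%, 47.0%, 42.8% and 40.6% in the order of the times. The median change of the members from 0 to 48 hpi was -0.40 on the log2 scale, close to the -0.32 of all starts. Scaled to background bins in place of the whole library, the median change at members was 0.15, so the direction of the fall depends on the scale. The rise does too. The median change at members was 0.10 at 3 and 0.11 at 12 hpi on the log2 scale. Scaling to bins enriched at all times moves these libraries by -0.15 and -0.23.

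H3K27Ac had medians of 2.31, 2.65, 2.45, 2.19 and 2.29 over the members, and its median change at 48 hpi was -0.003 on the log2 scale. On the scale of bins enriched at all times that change was 0.27, and the background scale moved the 24 hpi levels by 0.65, so a level course holds on the library mean only. At 48 hpi, 586 members (52.7%) had a level of 2 or more, against 589 at 0 hpi. The shares over all starts after 0 hpi were 46.4%, 46.5%, 46.3% and 46.6%. The median hid changes in both directions at single starts.

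**Figure D2:**
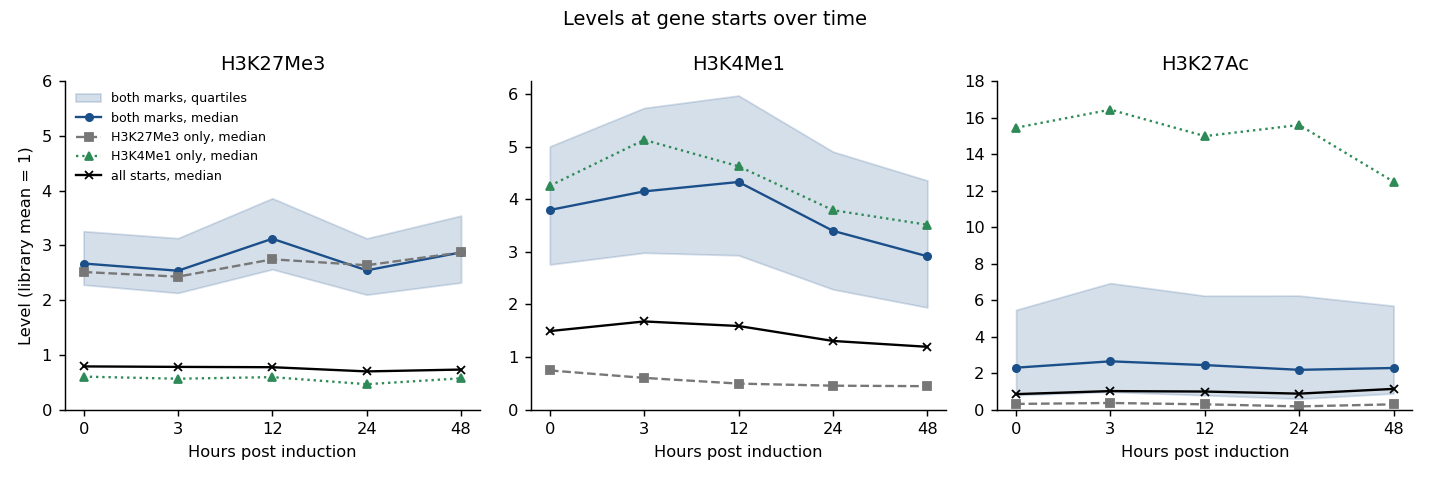
Median level at gene starts, with the library mean at 1, against hours post-induction, which are evenly spaced on the axis. Starts with both marks at 0 hpi are in blue with their quartiles shaded, beside starts with H3K27Me3 only, starts with H3K4Me1 only and all starts. The H3K27Me3 medians of the members lay between 2.54 and 3.12 at all 5 times.

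Changes of at least 2-fold were counted after 0.25 of the library mean was added to both levels, which shrinks the change at low levels. In H3K27Me3, no member was at least 2-fold higher than at 0 hpi at any later time, where the rate over all starts was 0%, 0.0313%, 0.0268% and 0.188% at 3, 12, 24 and 48 hpi. Members at least 2-fold lower numbered 0, 0, 12 and 19, against 0.0582%, 0.0895%, 0.488% and 0.416% of all starts. The 19 are 1.71% of the members, and as members had to start at 2 or more they had more room to fall than most starts. The starts with H3K27Me3 only had the same floor, and 2 of 1953 of them (0.102%) were lower at 48 hpi.

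In H3K4Me1, members at least 2-fold higher numbered 10, 53, 51 and 46 at 3, 12, 24 and 48 hpi, and 1.32%, 3.03%, 3.26% and 3.47% of all starts were. Members at least 2-fold lower numbered 2, 31, 54 and 144 (0.18%, 2.79%, 4.86% and 12.9%), against 1.61%, 4.73%, 8.58% and 12.5% of all starts. Members had to start at 2 or more in this mark, and so had the starts with H3K4Me1 only, of which 0.0335%, 0.938%, 4.62% and 9.05% were lower. With background scaling the split at 48 hpi turned from 46 higher and 144 lower to 121 higher and 36 lower.

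In H3K27Ac, which the rule did not use, members at least 2-fold higher numbered 97, 118, 127 and 137 (12.3% at 48 hpi), against 3.99%, 4.05%, 4.64% and 5.15% of all starts. Members at least 2-fold lower numbered 25, 71, 155 and 111 (9.98%), against 1.73%, 3.03%, 8.02% and 9.1%. At 48 hpi, 9.42% of the starts with H3K27Me3 only were higher and 3.74% lower. For starts with H3K4Me1 only it was 3.81% and 15.5%, so neither gain nor loss was particular to the members. Of the 137 members that were higher, 99 had been under 2 at 0 hpi, as had 890 of the 1150 among all starts. Of the 111 that were lower, 89 had been at 2 or more. With the scale set on bins that were enriched at all times, the split was 221 higher and 68 lower, and the background scale moved the 24 hpi library by 0.65 on the log2 scale, on which the 155 at 24 hpi were not recounted.

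The state of the 1112 members at 48 hpi, by a level of 2 in each mark, was all 3 marks at 381 (34.3%), both marks of the rule without H3K27Ac at 309 (27.8%) and H3K27Me3 alone at 195 (17.5%). Over all starts these states made up 2.74%, 2.47% and 10.9%. H3K4Me1 with H3K27Ac and without H3K27Me3 was found at 114 (10.3%, against 33.4% of all starts), and H3K27Me3 with H3K27Ac at 73 (6.56%). The remaining starts comprised 18 with H3K27Ac alone, 15 with H3K4Me1 alone and 7 with none. Over all starts H3K27Me3 with H3K27Ac made up 0.626%, and the other states 9.79%, 1.95% and 38.1%. Of the 154 members under 2 in H3K27Me3, 132 had been under 2.5 at 0 hpi, near the threshold. H3K27Ac of at least 2 was found at 85.7% of these 154 and at 47.4% of the 958 that kept H3K27Me3. Part of this contrast was there at 0 hpi. H3K27Me3 was kept by 80.1% of the members that had H3K27Ac of 2 or more at 0 hpi and by 92.9% of the others. The median H3K27Me3 of these groups at 0 hpi was 2.47 and 2.93.

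Acquisition of H3K27Ac was compared between classes among starts that were under 2 at 0 hpi. Of the 523 such members, 15.9%, 15.7%, 16.6% and 17.2% were at 2 or more at 3, 12, 24 and 48 hpi, the last with an interval of 14.1 to 20.7. For 1915 starts with H3K27Me3 only it was 1.15% at 3 hpi and 2.98% at 48 hpi (2.26 to 3.84), and for 505 starts with H3K4Me1 only 17.4% and 31.1% (27.1 to 35.3). Over all 12076 starts under 2 it was 4.32% at 48 hpi. A rise of at least 2-fold at 48 hpi was found at 18.9% of the 523 members and 9.50% of the starts with H3K27Me3 only. It was 26.3% with H3K4Me1 only and 7.37% over all 12076. At 3 hpi these shares were 13.8%, 6.42%, 10.5% and 5.86%. These classes did not begin level, since their median H3K27Ac at 0 hpi was 0.751 at members, 0.322 with H3K27Me3 only and 1.07 with H3K4Me1 only, and the part of this in the difference was not tested. Of the 164 CpG-rich members among the 523, 23.8% were at 2 or more at 3 hpi and 15.9% at 48 hpi, whereas the 359 others went from 12.3% to 17.8%. The same courses were seen over all starts under 2, at 3.91% and 2.65% for CpG-rich starts and 1.91% and 4.72% for the others, so they were not particular to the members.

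**Figure D3:**
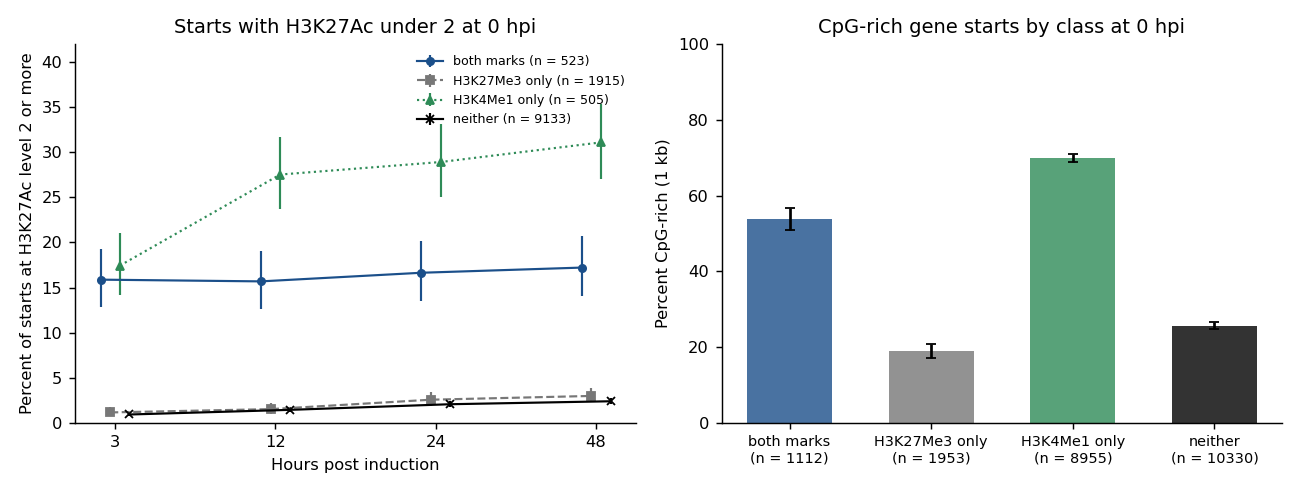
Left, percent of gene starts with H3K27Ac under 2 at 0 hpi that were at 2 or more at each later time, by class at 0 hpi. Right, percent of each class that was CpG-rich in the central 1 kb. Bars and whiskers show shares with exact binomial 95% intervals, which cover counting error only. At 48 hpi the shares were 17.2% with both marks, 2.98% with H3K27Me3 only and 31.1% with H3K4Me1 only. Shares at least 2-fold higher, which are not drawn, were 18.9%, 9.50% and 26.3%.

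The 19 members whose H3K27Me3 was at least 2-fold lower lay at 17 loci, and their H3K27Ac level was higher at 48 than at 0 hpi at all 19, as it was at 553 of the 1112 members. The count of 19 depends on the settings, with 9 in windows of 10 and 6 kb and 6 with 1 library mean added. All 19 were under 2 in H3K27Me3 at 48 hpi and 12 were under 1. Their median H3K27Me3 was 2.61, 2.43, 1.97, 1.17 and 0.958 over the 5 times, while their median H3K27Ac was 3.49, 11, 18.3, 27.1 and 21.9 and their median H3K4Me1 was 4.20, 6.80, 11, 8.43 and 6.21. H3K27Ac was at least 2-fold higher at 13 of them and 2-fold lower at none, where 12.3% of all members and 5.15% of all starts were higher. Of the 93 among all starts whose H3K27Me3 was at least 2-fold lower, these 19 included, 33 were higher in H3K27Ac. At all 13, H3K27Ac passed 2-fold at an earlier time than H3K27Me3, which passed it at 24 hpi in 7 of the 19 and at 48 hpi in 12. The log2 changes of the 13 at 48 hpi were -1.03 to -1.51 in H3K27Me3 and 1.14 to 5.80 in H3K27Ac. A mark with the smaller range crosses a shared 2-fold line later, so this order cannot show which mark began to change first. The members of this group were picked by their H3K27Me3 at 0 and 48 hpi, so their course in that mark is a description.

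Sema4a, a semaphorin with roles in immune cells, had 153, 67, 76, 38 and 21 H3K27Me3 tags, or levels of 2.37, 1.81, 1.97, 0.887 and 0.670. Its H3K27Ac went from 19 tags to 58, 427, 674 and 353, and its H3K4Me1 from 65 to 133, 649, 423 and 272. H3K27Me3 thus fell by 1.51 on the log2 scale, while H3K27Ac rose by 3.81 and H3K4Me1 by 2.37, and without the added quantity the H3K27Me3 ratio was -1.82 (-2.56 to -1.16).

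Cd14, the macrophage co-receptor for bacterial lipopolysaccharide, had H3K27Me3 levels of 3.62, 3.37, 4.66, 2.08 and 1.18. H3K27Ac there climbed through 1.82, 13.2, 22.9 and 55.5 to 68.2, so that acetylation was more than 10 times the library mean at 3 and 12 hpi with H3K27Me3 still above 3. Ifitm6, of the interferon-induced transmembrane family, had a similar course. It had H3K27Me3 levels of 2.98, 3.19, 3.24, 1.70 and 0.926 and H3K27Ac levels of 0.912, 11, 34.9, 61.7 and 64.6. Its relative Ifitm3, an antiviral membrane protein whose start lies within 10 kb at the same locus and is no separate case, went from 2.48 to 1.05 in H3K27Me3 and from 1.02 to 21.9 in H3K27Ac.

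Itgb7, the integrin beta 7 chain, had the highest H3K27Me3 of the 19 at 24 hpi, with levels of 3.06, 3.24, 3.68 and 2.94 up to 24 hpi and 0.990 at 48 hpi, when H3K27Ac had gone from 0.697 to 43.3. Tlr2, the receptor for bacterial lipoproteins, began just inside the rule with 129 H3K27Me3 tags and ended with 20, while its H3K27Ac rose from 7.61 to 36. Adipoq, which encodes the fat cell hormone adiponectin, had a passing gain: its H3K27Ac was 0.804, 14.1, 15.7, 13.9 and 3.28, and its H3K27Me3 3.07, 2.86, 1.97, 1.31 and 0.958. At Adipoq the loss of H3K27Me3 therefore outlasted most of the acetylation.

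**Figure D4:**
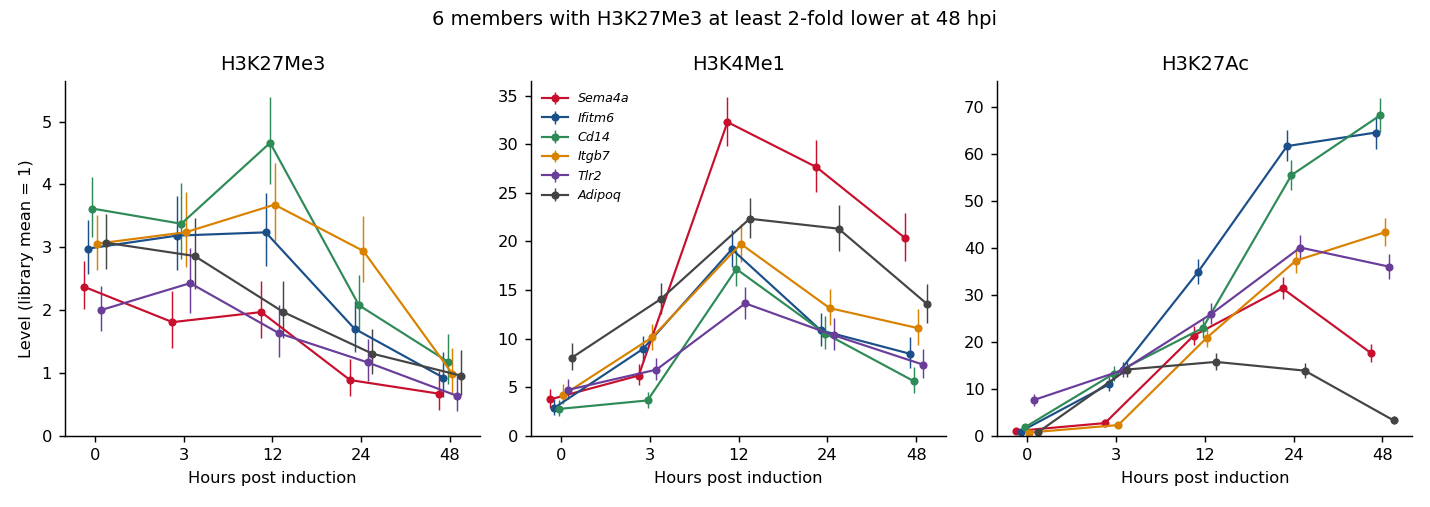
Level of each mark, with the library mean at 1, against hours post-induction (evenly spaced) at 6 members whose H3K27Me3 was at least 2-fold lower at 48 hpi. Whiskers are exact Poisson 95% intervals of the tag counts and cover counting error only. H3K27Ac at Cd14 and Ifitm6 rose to 68.2 and 64.6 while H3K27Me3 fell from 3.62 and 2.98 to 1.18 and 0.926.

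Socs3, a feedback inhibitor of cytokine signalling, went from 3.57 to 1.24 in H3K27Me3 and from 4.77 to 15.9 in H3K27Ac. Gpr77, a receptor for the complement fragment C5a, went from 2.02 to 0.830 and from 0.858 to 17.0, and its H3K4Me1 from 2.18 to 15. Abhd5, an activator of fat breakdown, went from 229 to 49 H3K27Me3 tags, and Zfp287, a zinc finger gene, from 138 to 25. Id1, an inhibitor of helix-loop-helix factors, went from 170 to 36 and Tubb6, a beta tubulin, from 168 to 36. All 6 of these were among the 13 with H3K27Ac at least 2-fold higher.

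The other 6 of the 19 had H3K27Ac within 2-fold of 0 hpi at 48 hpi, although 3 of them, Fam101b, Ier3 and Syde2, had been past 2-fold at an earlier time. The starts of Itsn1, an endocytic scaffold, and Cryzl1, a quinone reductase-like protein, share a bidirectional locus and most of their tags, with H3K27Me3 of 2.69 to 0.862 and 2.30 to 0.958. They were the only 2 of the 19 whose H3K4Me1 was at least 2-fold lower, at 3.16 to 0.822 and 4.31 to 0.972, and their H3K27Ac was above 15 at 0 hpi already. Ier3, an immediate early gene, had H3K27Ac of 16.9 and 31.6 and H3K27Me3 of 2.25 and 0.702. Syde2, Cdk4, the cell cycle kinase, and Fam101b made up the rest. Fam101b had 159 H3K27Me3 tags at 0 hpi and 28 at 48 hpi.

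**Figure D5:**
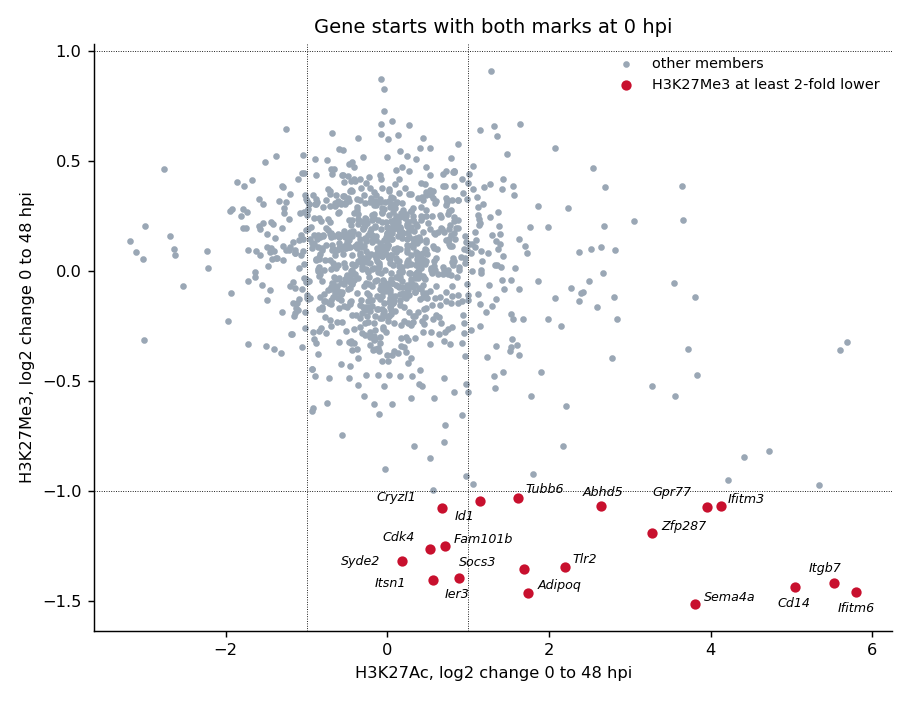
Change from 0 to 48 hpi, on the log2 scale with 0.25 of the library mean added, of H3K27Ac (horizontal) and H3K27Me3 (vertical) at 1112 gene starts with both marks at 0 hpi. Dotted lines mark 2-fold, and the 19 starts with H3K27Me3 at least 2-fold lower are in red with their names. All 19 lie to the right of 0, while 124 starts past 2-fold in H3K27Ac keep H3K27Me3 within 2-fold.

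Of the 137 members at least 2-fold higher in H3K27Ac at 48 hpi, 124 had H3K27Me3 within 2-fold of 0 hpi and 13 were at least 2-fold lower, against 1.71% lower over all members. Above their 0 hpi level of H3K27Me3 were 64 of the 137, 656 of the 1112 members and 10746 of all 22350 starts. Over all 137 the median H3K27Me3 was 2.72 at 0 and 2.71 at 48 hpi, when 106 were at 2 or more, against 86.2% of all members. Their median H3K27Ac was 0.858 at 0 and 4.87 at 48 hpi. Of the 137, 43 passed 2-fold already at 3 hpi, 41 at 12, 21 at 24 and 32 at 48 hpi. H3K4Me1 was at least 2-fold higher at 37 of the 137, against 509 of the 1150 among all starts that were higher in H3K27Ac. The rule gave members a floor of 2 in H3K4Me1 at 0 hpi, with a median of 3.91 in the 137. All starts had no such floor, so members had less room to double and these shares cannot be compared directly. At the 37, H3K27Ac passed 2-fold earlier at 16, at the same time at 20 and later at 1. The same floor bears on that order. The C/EBP motif was found at 10.2% of the 137, close to the 10.3% of all starts, and the PU.1 motif at 7 of them (5.11%), against 3.12% of all starts. CpG-rich were 31.4%, against 53.8% of all members and 44.2% of all starts. Across the 1112 members, changes at 48 hpi had a Spearman correlation of -0.10 between H3K27Me3 and H3K27Ac, -0.14 between H3K27Me3 and H3K4Me1 and 0.41 between H3K4Me1 and H3K27Ac. For starts with H3K27Me3 only these were 0.21, 0.19 and 0.38, and over all starts 0.03, 0.03 and 0.25. These points share their libraries, and many share base composition.

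Rnf11, a ubiquitin ligase adaptor, had the largest gain of this kind. Its H3K27Ac went from 12 tags to 113, 223, 405 and 918, a level of 0.644 to 45.7, and its H3K4Me1 from 2.64 to 19.7. Its H3K27Me3 was 3.01, 3.54, 3.68, 3.36 and 2.36, with a ratio interval of -0.76 to 0.04 on the log2 scale that included no change. Tnfsf14, a cytokine of the tumour necrosis factor family, went from 0.375 to 30.2 in H3K27Ac with H3K27Me3 at 2.73 and 2.07.

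Cln3, a lysosomal membrane protein, had 15, 15, 48, 182 and 262 H3K27Ac tags, and its H3K27Me3 levels were 2.30 and 2.75 at 0 and 48 hpi. P2ry2, a nucleotide receptor, had the highest H3K27Me3 at 0 hpi of the members outside the 10 taken to lie in repeats. Its H3K27Me3 was 6.13, 5.29, 8.73, 5.67 and 5.55, and its H3K27Ac nonetheless went from 1.88 to 10.8. F5, coagulation factor V, was close to the 2-fold line, with H3K27Me3 of 2.87 to 1.34 and H3K27Ac of 1.23 to 60.0. Stab1, a scavenger receptor of macrophages, was similar, at 2.44 to 1.28 and 0.483 to 19.1, with H3K4Me1 of 3.28 to 20.7. Slfn1 and Tmem150b also ended between 1 and 2 in H3K27Me3, with H3K27Ac at 23.4 and 20.3.

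Krt7, an epithelial keratin, had the largest rise of H3K27Me3 among the members. It had 138, 72, 104, 140 and 133 tags, or levels of 2.14, 1.94, 2.69, 3.27 and 4.25, a change of 0.91 on the log2 scale. H3K4Me1 rose there too, from 2.13 to 5.53, and H3K27Ac from 0.590 to 1.79. The 4 members next in rank, Gm10800, Gm10801, Gm10717 and Gm17535, were all among the 10 taken to lie in repeated sequence.

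The 111 members at least 2-fold lower in H3K27Ac all kept H3K27Me3 within 2-fold, as did all but 19 of the 1112 members. Their median H3K27Ac was 3.81, 3.68, 2.00, 1.35 and 1.24 and their median H3K27Me3 2.70 at 0 and 3.03 at 48 hpi. H3K4Me1 was at least 2-fold lower at 26 of them, against 12.9% of all members and 12.5% of all starts, and went from a median of 4.31 to 2.62. Eya2, a transcriptional cofactor and phosphatase, had 147, 49, 12, 6 and 13 H3K27Ac tags, a level of 7.88 to 0.647, and H3K4Me1 levels of 14.7, 12.9, 7.66, 5.56 and 5.38, with H3K27Me3 at 2.62 and 2.90. H3K27Ac at Eya2 had already fallen from 147 to 49 tags at 3 hpi, when H3K4Me1 had gone from 14.7 to 12.9.

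Cabp1, a calcium-binding protein, went from 5.79 to 0.448 in H3K27Ac with H3K27Me3 of 3.83 and 4.09. E2f7, a repressor of cell cycle genes, fell later, with H3K27Ac of 11.5, 10.5, 5.74, 1.07 and 1.19. Rras2, a Ras-like GTPase, rose to 8.43 at 3 hpi from 4.56 and ended at 0.348. Slc2a4, the insulin-regulated glucose transporter, went from 13.7 to 1.49. H3K27Me3 of these 3 stayed between 1.81 and 3.64 at all times.

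The largest falls of H3K4Me1 were at starts with few tags at 48 hpi. Aqp6, a water channel, had 44, 42, 17, 26 and 4 tags, and 4931408C20Rik had 50, 35, 19, 12 and 6. H3K27Me3 at Aqp6 was 2.95 and 3.48. 2200002K05Rik went from 36 to 4. Fos, a subunit of AP-1, differed from these: its H3K4Me1 fell from 3.85 to 0.748 while H3K27Ac was 11.7, 20, 12.8, 21.5 and 21 and H3K27Me3 2.78, 3.21, 1.70 and 1.63 from 3 to 48 hpi.

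Among gene lists, macrophage and granulocyte genes gained H3K27Ac at every member. Of 67 starts in that list 21 had H3K27Me3 and 8 of these (38.1%) were members, near the 36.3% of all starts with H3K27Me3. All 8, Abca1, Cd14, Csf1r, Fcgr1, Fgr, Gpnmb, Mmp9 and Tlr2, were at least 2-fold higher in H3K27Ac at 48 hpi, with a median change of 2.21 on the log2 scale, against -0.003 over all members, of which 12.3% were higher, and 5.15% of all starts. The gain was not particular to members, since all 7 macrophage markers were higher and 2 of them were members. H3K27Me3 was at least 2-fold lower at Cd14 and Tlr2. These genes are known for this lineage and the list was chosen with earlier results known, so the count is a description.

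Csf1r, the receptor for CSF-1, had H3K27Me3 of 2.28, 1.62, 2.93, 1.87 and 1.40 and H3K27Ac of 2.68, 5.59, 10.8, 26.0 and 13.3. Mmp9, a matrix protease, had the highest H3K4Me1 of all members at 0 hpi, 23.5, with H3K27Ac of 7.35 to 26.4 and H3K27Me3 of 2.16 to 1.02. Abca1, a cholesterol exporter, went from 3.43 to 11.1 in H3K27Ac. At Fcgr1, a high-affinity Fc receptor, H3K27Me3 was 2.36 at 0 and 2.52 at 48 hpi. At Gpnmb, a glycoprotein of macrophages, it was 3.69 and 4.88. Scaling to bins enriched at all times moves the 48 hpi library by -0.18 on the log2 scale. The small rise at Fcgr1 therefore depends on the scale. At 3 hpi Fcgr1 had been at 1.75. H3K27Ac at these starts went from 1.82 to 10.4 and from 0.483 to 4.48. Fgr, a Src family kinase of myeloid cells, had the smallest end level, with H3K27Ac of 0.858 at 0, 1.85 at 12, 2.79 at 24 and 3.88 at 48 hpi and H3K27Me3 of 4.25 and 3.03.

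Of 17 starts with H3K27Me3 in the T and NK lineage list 4 were members (23.5%) and of 5 in the B lineage list 2 were (40%), beside 36.3% over all starts with H3K27Me3. All 6 were at 2 or more in H3K27Me3 at 48 hpi, as were 86.2% of all members. Cd3g and Cd3d, chains of the T cell receptor complex whose starts lie near each other and share tags, had 4.07 and 3.55 at 0 hpi and 4.85 and 4.21 at 48 hpi, with H3K27Ac under 1 at all times. Ccr7, a lymphocyte homing receptor, had H3K27Ac of 5.74 to 1.39 and H3K27Me3 of 3.12 to 4.21. Il2rb, an interleukin-2 receptor chain, went from 8 to 31 H3K27Ac tags. In the B lineage list, Cd40, a co-stimulatory receptor, had H3K4Me1 of 15.2 to 7.48 and H3K27Ac of 2.73 at 0, 3.26 at 3, 9.59 at 24 and 3.73 at 48 hpi, and Ciita, the master regulator of MHC class II, had H3K27Ac of 2.31, 0.326, 0.699, 0.326 and 1.54. H3K27Me3 was between 2.66 and 4.07 at both genes throughout.

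Of the myeloid transcription factors, Fos, Bhlhe41 and Batf3 were members. Batf3, an AP-1 family factor, rose to 3.26 in H3K27Ac at 3 hpi from 1.18 and ended at 0.398. Bhlhe41, a helix-loop-helix repressor, went through 14.5, 24.0, 11.2, 16.9 and 9.65. Of 11 stem cell, erythroid and megakaryocyte starts with H3K27Me3 5 were members (45.5%), and of 35 chemokine, interleukin and receptor starts with H3K27Me3 8 were (22.9%), beside 36.3% over all starts with H3K27Me3. In H3K27Ac, 3 of these 8 were at least 2-fold higher and 3 lower, against 12.3% and 9.98% of all members. None of the 20 starts of genes that every cell uses had H3K27Me3.

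The developmental families are classical Polycomb targets, and the share of their H3K27Me3 starts that were members is given without a test and on small counts. Of 76 starts of homeobox and other developmental transcription factor genes with H3K27Me3, 15 (19.7%) were members, below the 36.3% of all starts. It was 16 of 35 (45.7%) for secreted ligands, 9 of 17 (52.9%) for their receptors, 21 of 55 (38.2%) for ion channels and neurotransmitter receptors and 5 of 6 (83.3%) for cadherins. No member of these 5 lists changed 2-fold in H3K27Me3 at 48 hpi, where 1.71% of all members were lower, a rate at which lists of this size can hold none. In H3K27Ac, at least 2-fold lower were 2 of the transcription factors, 4 ligands, 2 receptors and 6 channels, and 1 ligand, 1 receptor and 1 channel were higher. Over all members 9.98% were lower and 12.3% higher, and over all starts 9.1% and 5.15%.

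Among transcription factors, Neurog3, of the endocrine pancreas, had H3K27Ac of 2.20 to 0.895 and Foxh1, a partner of Smad proteins, of 3.11 to 1.39. Among ligands, Wnt10a had 39, 26, 7, 2 and 5 H3K27Ac tags, with H3K27Me3 of 3.10 and 3.32. Wnt10b, its relative, went from 6 to 21 tags and ended at a level of 1.04, still near the library mean. Gdf11, Pdgfb and Bmp8a were lower in H3K27Ac, at 4.40 to 1.64, 2.36 to 1.04 and 1.13 to 0.348. Of receptors, Pdgfrb, for platelet-derived growth factor, went from 0.965 to 2.54 with H3K27Me3 of 3.06 to 4.05. Lgr5, a receptor for R-spondins, and Tgfbr3, a co-receptor for TGF-beta, were lower, at 1.23 to 0.199 and 2.52 to 0.746, and Tgfbr3 kept H3K27Me3 at 4.18 and 4.25. Lgr5 and Bmp8a began under 2 in H3K27Ac, near the library mean of 18.6 tags, so their falls rest on few tags.

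Near the thresholds, the starts inside and outside the rule were alike in level. Abcb9, Bsnd and Dhx32, with 129 H3K27Me3 tags at 0 hpi, were just inside, and 1700123I01Rik, 4930512B01Rik and Clip2, with 128, just outside. For H3K4Me1, 4933407P14Rik, Adm2 and Alox12 had 35 tags and were inside, and 1200009I06Rik, 1700007G11Rik and AI836003 had 34.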

How the data were processed

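The marks were measured by ChIP-seq in 15 libraries. The authors aligned the reads to mm9 with Eland or Bowtie, keeping unique matches without mismatches, and deposited other values than counts: the genomic position of each 36 bp tag, with no strand. The rule for identical tags differed between the deposited libraries, so 1 tag per position was kept here. Closing lines without a position were dropped. Tags were counted by their centre in windows around 22350 protein-coding starts (mm9 annotation) and divided by the mean of the library over 2448 Mb with tags. Changes were taken as log2 after adding 0.25 library means. Binomial and Poisson intervals were exact at 95%. With 1 library per mark and time there was no test. Named genes, skipping starts within 3 kb of a better ranked one, were the 10 with the highest joint level at 0 hpi (the smaller of both marks), the 10 largest falls and 5 largest rises of H3K27Me3, the 10 largest rises and 5 largest falls of H3K27Ac, the 5 largest of each for H3K4Me1, members in the blood lineage lists, developmental members past 2-fold and starts next to the thresholds. The rest of the 19 with lower H3K27Me3 and Gm10717 and Gm17535 were named after their values were seen. The members and lists were chosen with earlier results of these data known. Alternatives were other scalings, thresholds, windows, added amounts and tag rules. Scripts used Python 3.11.15, numpy 2.4.6, pandas 2.3.3, scipy 1.17.1 and matplotlib 3.10.9 and were tested on simulated data.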

Additional observations from a re-analysis of the deposited data

How the results depend on the processing

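No paired analysis was possible because there was 1 library for each mark and time, and for the same reason no replicate could be left out. With the rule taken over the mean of background bins, a looser cut, the number of members was 3952. At the 1112 members, background scaling gave a median change at 48 hpi of 0.20 for H3K27Me3. For H3K4Me1 it turned to 0.15, with 121 higher and 36 lower. With the rule taken over the mean of bins enriched at all times, a much stricter cut, the number of members was 3. At 0 hpi that mean was 2.43 library means for H3K27Me3 and 5.95 for H3K4Me1. At the 1112 members, this scaling turned the median change of H3K27Me3 to -0.10. That of H3K27Ac was 0.27, with 221 higher and 68 lower. With a threshold of 1.5 the number of members was 2185, with 29 lower in H3K27Me3, 95 higher and 284 lower in H3K4Me1 and 246 and 220 in H3K27Ac. With a threshold of 3 it was 269, with 3 lower in H3K27Me3, a median H3K4Me1 change of -0.52, 4 higher and 44 lower in H3K4Me1, and 31 and 26 in H3K27Ac. Fewer or more members by construction move these counts. In windows of 10 and 6 kb, 9 were lower in H3K27Me3 and the median H3K4Me1 change was -0.27. With 1 library mean added, 6 were lower in H3K27Me3, 57 lower in H3K4Me1, and 88 higher and 56 lower in H3K27Ac. Requiring both marks in the central 1 kb, an alternative chosen after seeing the data, left 517 members, a median H3K27Me3 change of 0.10 with 10 lower, 27 higher and 82 lower in H3K4Me1, 85 and 62 in H3K27Ac, and 37.3% CpG-rich. The causes were not tested otherwise. Of 1728 values for 72 named members over 8 alternatives, 95 moved and 0 reversed. A named value could count as reversed only if its change was at least 2-fold with an interval that left out no change. A turned sign at a smaller change was not counted as reversed, so the 0 does not cover those. Depth limits single starts: a level of 2 in H3K4Me1 at 0 hpi was 35 tags.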
